A study of Mus musculus with 11 samples.

Results

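The transcripts of the nuclear-encoded subunits of oxidative phosphorylation (OXPHOS) were examined in mouse hearts. The animals were female C57BL/6J mice aged 8 weeks, and their hearts were taken 3 days after the operation. A protein-coding gene was taken as a member when its symbol began with Nduf and a letter of the a, b, c, s or v series (or was Ndufab1), was Sdha to Sdhd, or began with Uqcr, Cox4 to Cox8 followed by a, b or c, or Atp5, and when it did not lie on the mitochondrial chromosome. This rule found 84 of the 55513 genes of the count table, 36 in complex I, 4 in complex II, 8 in complex III, 18 in complex IV and 18 in complex V. Ndufa4 and its relative Ndufa4l2 were placed in complex IV, where the Ndufa4 protein is found. Permanent ligation of the left anterior descending (LAD) coronary artery caused a myocardial infarction (MI) in 8 mice. Of these, 4 received A10i (GI254023X, an inhibitor of the metalloprotease ADAM10) at 100 mg/kg and 4 received its solvent DMSO, both from osmotic minipumps. The 3 sham-operated mice also received DMSO. The infarcted hearts gave tissue of the infarct together with its border zone, and the sham hearts gave healthy tissue, so that infarction and the place of sampling cannot be told apart in a comparison with sham. No gene was altered in any group, and there was no A10i group without infarction.

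OXPHOS is the last stage of respiration in the inner mitochondrial membrane. Complex I (NADH dehydrogenase) and complex II (succinate dehydrogenase) pass electrons to ubiquinone, complex III (the cytochrome bc1 complex) passes them on to cytochrome c, and complex IV (cytochrome c oxidase) passes them to oxygen. Complexes I, III and IV pump protons, and complex V (ATP synthase) uses the proton gradient to make ATP. The mitochondrial genome encodes a small set of subunits and the nucleus encodes all others. The heart is among the tissues richest in mitochondria, which fill much of the cardiomyocyte. In a whole tissue sample, fewer cardiomyocytes and less of the transcript per cardiomyocyte cannot be told apart.

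Each library held 21702659 to 29511782 counted fragments. The tissue carried the defining genes of heart muscle: the adult cardiac myosin heavy chain Myh6 had a mean of 977593 normalized counts in the sham group, 429259 in the DMSO group and 562931 in the A10i group. A normalized count is the count scaled to a common effective library size of 25576618. Of 20 cardiomyocyte markers, 9 fell in DMSO mice against sham and 6 fell in A10i mice, with median log2 differences of -0.61 and -0.44. All 10 neutrophil markers tested rose in DMSO mice (median 7.08) and 9 of 10 rose in A10i mice (median 5.25). Of 14 macrophage and monocyte markers 10 and 12 rose, and of 10 fibroblast markers 6 and 9 rose. Of 10 endothelial markers 3 and 1 fell. Genes are said here to fall or rise at an adjusted p under 0.01 in edgeR's test. Of all genes tested, 9.6% fell and 12.9% rose in DMSO mice, and 9.09% fell and 13.8% rose in A10i mice. The endothelial share that fell in A10i mice, 10%, was near that background. In the medians of the cardiomyocyte markers and of the OXPHOS genes, DMSO mouse A129 and A10i mouse A116 lay lowest of their groups. Results that rest on them are therefore also given without them.

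Measured per length as RPKM, the subunits spanned a wide range in sham hearts. The median of complex I was 156 RPKM, with Ndufb4 lowest at 5.29. Complexes II and III had medians of 309 and 307 RPKM, with the flavoprotein Sdha (407) and the Rieske iron-sulfur protein Uqcrfs1 (540.3) at the top. Complex IV had a median of 197 RPKM, with the heart isoform Cox6a2 at 1172. Complex V had a median of 147, with the subunits Atp5a1 and Atp5b at 1436 and 1226. Only uniquely aligned reads were counted, so levels of small subunits that have processed pseudogenes are uncertain, among them Ndufb4 (18.3% of its 50-base exonic windows also occur in other annotated exons), Atp5g2 (38.3%), Cox7c (22.1%) and Atp5l (9.99%). The other 3 members were too low to test. Cox8c and a second gene with the symbol Atp5o had 0 counts in all 11 mice, and Cox7b2 had at most 6.92 normalized counts. All other 81 members were tested in each comparison.

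The comparison of DMSO mice with sham mice asks what infarction did to these transcripts without the inhibitor. Of 81 members, 77 were lower in value (background 49.8%) and 4 higher (50.2%) in DMSO mice after TMM scaling. Scaling to the summed counts of the cardiomyocyte markers turned this to 1 lower and 80 higher. On that scale the median of all genes was 0.76 and that of the members 0.39. The median log2 difference was -0.34, or -21.0%, against 0.0022 over all 17119 genes tested. The whole set lay lower, while few members passed the test alone. At an adjusted p of 0.01 in edgeR's quasi-likelihood test (Benjamini-Hochberg), 5 members fell (Cox7a1, Cox7a2l, Ndufa10, Ndufs5 and Ndufs8), and 0 rose. That is 6.17% of the members, below the background of 9.6% of all genes that fell, and 12.9% of all genes rose. At an adjusted p of 0.05, 30 members lay lower (background 18.4%) and 1 higher (background 21.5%). For 64 members every DMSO mouse lay below every sham mouse (background 23.6%), and for 1, Cox6a1, every DMSO mouse lay above (background 25.1%). The calls depend on few mice: without any 1 of the sham mice or without DMSO mouse A128, 0 members fell, and without A129 the count was 10 and the median -0.23.

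The size was alike across complexes. The median log2 difference between DMSO and sham mice was -0.37 in complex I, -0.30 in complex II, -0.33 in complex III, -0.28 in complex IV and -0.34 in complex V. The complexes moved together in each heart and differed more between mice than among themselves. As a median over the 81 members against the mean of sham, the sham mice lay between -0.02 and 0.05. DMSO mice A105, A127, A128 and A129 lay at -0.15, -0.20, -0.30 and -0.70. A10i mice A116, A117, A119 and A120 lay at -0.45, -0.20, -0.10 and -0.02. Sham and infarcted groups thus overlap only through mouse A120, and the infarcted groups overlap each other over most of their range. The members held 4.12% ± 0.0437 (SD, n = 3) of the counts of nuclear genes in sham, 3.45% ± 0.392 (SD, n = 4) in DMSO and 3.71% ± 0.35 (SD, n = 4) in A10i mice.

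**Figure D1:**
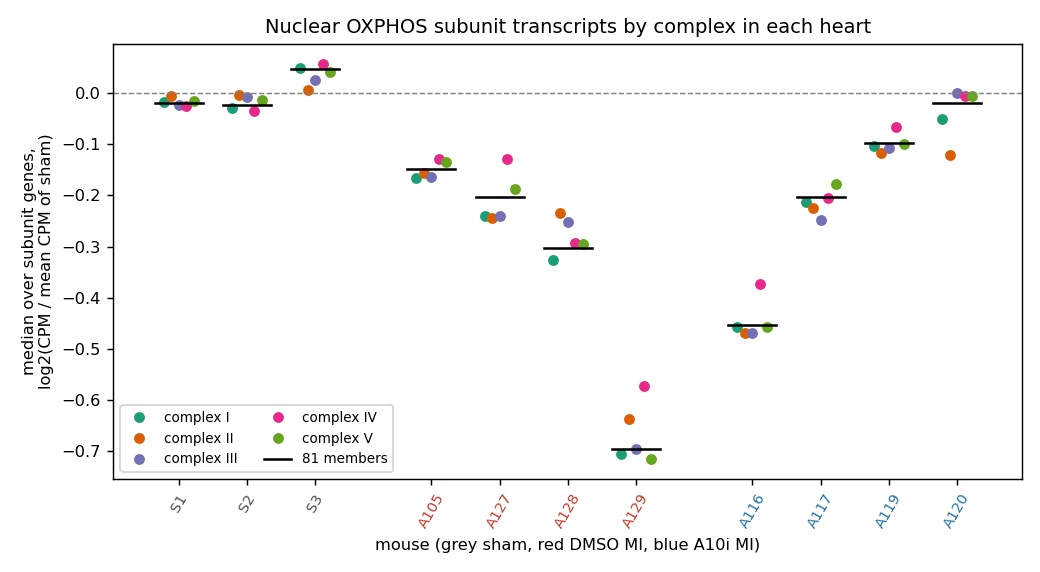
The median log2 CPM of the subunit genes of each complex, relative to the mean of sham, is plotted for each of the 11 mice (coloured points), with the median over all 81 members as a black line. After TMM scaling the DMSO mice lie from -0.15 to -0.70 and the A10i mice from -0.02 to -0.45, with the complexes close together in each mouse. With counts scaled to cardiomyocyte markers the median of the members lies above sham instead, as does that of all genes.

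A10i mice against sham mice share the sham libraries with the comparison above. Of the 81 members, 75 were lower in value (background 50.5%) and 6 higher (49.5%). The median log2 difference was -0.18 (-11.9%) against -0.0056 over all 17004 genes. Scaling by library size alone gave 41 lower and 40 higher, with medians of -0.0005 for the members and 0.18 for all genes. Cardiomyocyte scaling gave 1 lower and 80 higher, with medians of 0.34 for the members and 0.53 for all genes. Of the members, 3 fell (Cox7a1, Ndufs1 and Atp5s), where 9.09% of all genes fell, and Cox6a1 rose, where 13.8% of all genes rose (edgeR). At an adjusted p of 0.05 the counts were 10 lower and 1 higher (backgrounds 17.5% and 21.7%). In 33 members every A10i mouse lay below every sham mouse (background 23.5%), and in 1 every A10i mouse lay above (background 24.7%). The medians by complex were -0.20, -0.20, -0.20, -0.15 and -0.17 for complexes I to V. Without A116 the median was -0.10 and 9 members fell, and without any 1 sham mouse 0 fell and 0 rose.

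Comparing A10i with DMSO mice directly tests whether the inhibitor altered the response, and also whether the 2 differences from sham differ. No member passed the edgeR test at 0.01 (0 of 81, background 0%). DESeq2 also called 0 members at 0.01, where 0.573% of all genes were higher and 0.677% lower. Further, 0 members had an unadjusted p under 0.05 in edgeR, DESeq2 or limma-voom. At that p edgeR gave 6.73% of all genes lower and 7.1% higher. After TMM scaling 78 of 81 members were higher in value in A10i mice (background 50.7%) and 3 lower (49.3%), with a median log2 difference of 0.13 (9.35%). Under cardiomyocyte scaling, however, 74 were lower, and the member median of -0.08 still lay above that of all genes, -0.22. That scaling uses the summed counts of the 20 markers, so abundant genes weigh most. The most abundant, Myh6 and Atp2a2, were at 0.39 and 0.54 between A10i and DMSO mice. Over the 20 markers the median was 0.17, with 14 higher and 6 lower in value. All members were measured in the same 8 mice and move together, so their shared sign is not a count of independent observations. Without DMSO mouse A129 the median was 0.03 with 60 members higher, and without A10i mouse A116 it was 0.22. The largest value was that of Cox7a1, 0.33 (SE 0.21), with a 95% interval of -0.15 to 0.80 and an adjusted p of 0.540 (edgeR), and without A129 it was 0.15. The smallest p-values belonged to Ndufb2 (0.26, adjusted p 0.397), Ndufa4l2 (-0.24, 0.425), Cox7a2l (0.17, 0.481), Ndufb10 (0.23, 0.491) and Atp5g1 (0.25, 0.505), in edgeR's test. The 4 mice a group thus leave differences of this size unresolved.

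**Figure D2:**
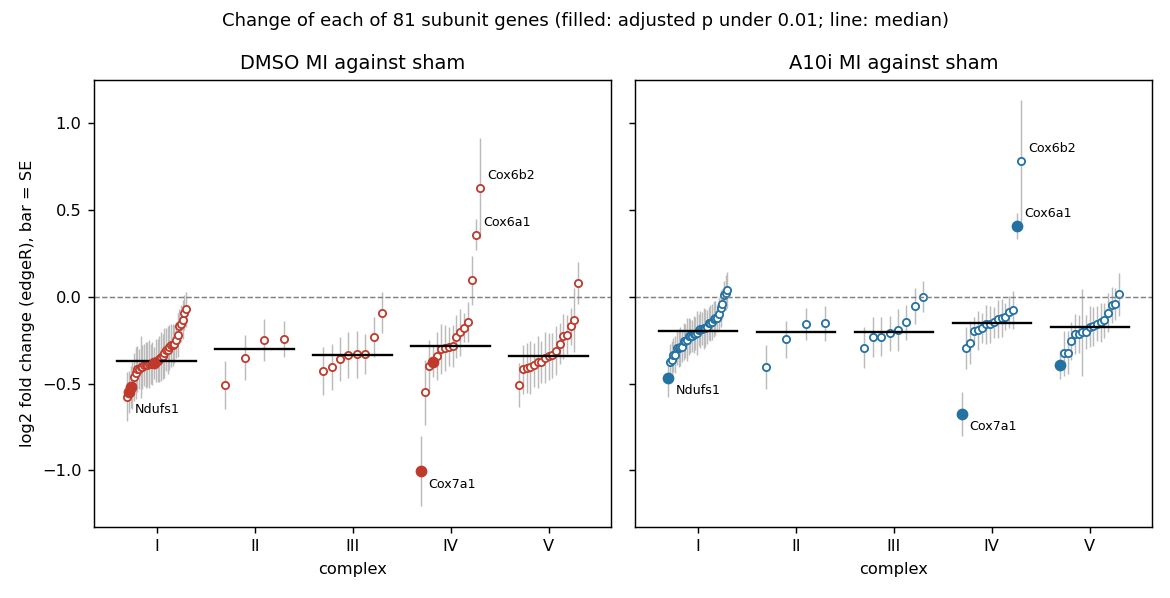
Each point is 1 of 81 subunit genes, grouped by complex, with its edgeR log2 fold change and SE in DMSO mice (left) and A10i mice (right) against sham. Filled points have an adjusted p under 0.01 and black lines are medians. After TMM scaling most points lie below 0 in both panels, with Cox7a1 lowest and Cox6a1 and Cox6b2 above 0. Under cardiomyocyte scaling all but 1 lie above 0, where the median of all genes is 0.76 (DMSO) and 0.53 (A10i).

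Complex I takes electrons from NADH through a chain of iron-sulfur clusters held by its core subunits. All 36 members were lower in value in DMSO mice, and 3 fell; in A10i mice 33 were lower and 1 fell. Ndufs1, the largest core subunit (ENSMUSG00000025968, chr1:63143596-63176833 on GRCm38), had 20901, 21133 and 20282 normalized counts in sham mice, 16427, 13785, 15098 and 10634 in DMSO mice (A105, A127, A128, A129) and 12305, 15811, 16763 and 15155 in A10i mice (A116, A117, A119, A120). Every infarcted mouse lay below every sham mouse. The log2 difference from sham was -0.57 (SE 0.14, adjusted p 0.0104) in DMSO mice, which just missed the threshold, and -0.47 (SE 0.11, adjusted p 0.00798) in A10i mice. Part of its exons lie opposite to Eef1b2 on the other strand, and the strand setting of the counting is not stated, so these reads cannot be told apart. The call in A10i mice ended without A117 (adjusted p 0.0113), without A120 (0.0218), without any 1 sham mouse (0.0299 to 0.0380) and with library size alone (0.0174), all from edgeR.

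Ndufs8, a core iron-sulfur subunit (ENSMUSG00000059734, chr19:3908863-3912774 on GRCm38), had 4580, 4665 and 4912 normalized counts in sham, 3845, 3407, 3087 and 2607 in DMSO and 3257, 3396, 4092 and 4166 in the A10i mice. It fell in DMSO mice by 0.55 on the log2 scale (SE 0.12, adjusted p 0.00631), and its value in A10i mice was -0.34 (adjusted p 0.0195). Ndufa10, an accessory subunit on the matrix side of the membrane arm (ENSMUSG00000026260, chr1:92439010-92473860 on GRCm38), had 14092, 13932 and 13727 normalized counts in sham, 11001, 9976, 10227 and 7730 in DMSO and 8973, 10539, 11734 and 11604 in the A10i mice. No infarcted mouse reached the sham range in Ndufs8 or Ndufa10. Ndufa10 fell in DMSO mice by 0.52 (SE 0.12, adjusted p 0.0087), with -0.37 (adjusted p 0.0161) in A10i mice. Ndufs5, a small accessory subunit (ENSMUSG00000028648, chr4:123712710-123718202 on GRCm38), fell by 0.38 (SE 0.09, adjusted p 0.00958), from 901, 878 and 957 normalized counts in sham to 742, 770, 685 and 608 in DMSO mice. Its A10i mice, at 642, 777, 906 and 889, overlapped sham (log2 difference -0.18, adjusted p 0.224). The calls of Ndufs8 and Ndufa10 in DMSO mice ended without A127 (adjusted p 0.0136 and 0.0204) or A128 (0.0131 and 0.0120), and that of Ndufs5 without A128 (0.0184) or A129 (0.0106), in edgeR's test. All 3 calls also ended without any 1 sham mouse (0.0240 to 0.0506) and with library size alone (0.0148, 0.0196 and 0.132). The call of Ndufs5 ended as well with at least 10 counts in every library and with all 11 libraries in 1 fit.

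Further core subunits of complex I lay lower in value without passing the test. In DMSO mice Ndufs7 was at -0.42, Ndufs3 at -0.31, Ndufv1 at -0.29 and Ndufv2, which with Ndufv1 forms the NADH-oxidizing tip, at -0.28, with adjusted p-values of at least 0.0293 (edgeR). Their values in A10i mice were -0.30, -0.25, -0.25 and -0.12. The 7 core subunits had a median of -0.42 in DMSO and -0.30 in A10i mice, and the 29 accessory members -0.37 and -0.18. The smallest differences were those of Ndufa11 (-0.07 in DMSO, 0.04 in A10i), Ndufc2 (-0.09 and 0.01) and Ndufb6 (-0.13 and 0.02), which overlapped sham in both groups. Reads of Ndufb6 are uncertain, since 31.6% of its windows are shared with its antisense neighbour Smim27. Ndufb2, the member with the smallest p between A10i and DMSO mice, had 1475, 1561, 1302 and 1106 normalized counts in DMSO and 1421, 1490, 1728 and 1859 in A10i mice. Both ranges overlap, and its sham values were 1722, 1770 and 1938.

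Complex II is the only complex with no subunit from the mitochondrial genome. It joins the citric acid cycle to the respiratory chain. All 4 members were lower in value in both infarcted groups and 0 passed the test in either. Sdha, which oxidizes succinate, had 42782, 43714 and 42224 normalized counts in sham, 34368, 30352, 32981 and 23552 in DMSO and 25393, 35730, 35747 and 32387 in the A10i mice, so that neither infarcted group overlapped sham. Its log2 difference from sham was -0.51 (SE 0.14, adjusted p 0.0165) in DMSO and -0.41 (SE 0.13, adjusted p 0.0275) in A10i mice. The iron-sulfur subunit Sdhb was at -0.35 and -0.25, and the membrane anchors Sdhc and Sdhd at -0.25 and -0.15, and at -0.24 and -0.16.

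In complex III all 8 members were lower in value in DMSO mice and 0 passed the test. Uqcrq, a small subunit near ubiquinone, showed the largest difference, -0.43 (adjusted p 0.0340), with 9531, 9782 and 10170 normalized counts in sham, 8302, 8034, 7540 and 5444 in DMSO and 6809, 7952, 9003 and 9691 in the A10i mice. The A10i mice reached into the sham range (log2 difference -0.23, adjusted p 0.142). The core proteins Uqcrc1 and Uqcrc2, which hold up the matrix face, were at -0.41 and -0.33 in DMSO and at -0.29 and -0.21 in A10i mice. Uqcrfs1 was at -0.34 and -0.23 and Uqcr10 at -0.36 and -0.15. Uqcrb overlapped sham in both groups, with -0.09 and -0.0001. Cyc1, the cytochrome c1 of the same complex, whose symbol lies outside the rule, was at -0.34 and -0.20.

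In complex V 16 of 17 members tested were lower in value in both infarcted groups. Subunits Atp5a1 and Atp5b of the F1 head had log2 differences of -0.41 and -0.42 in DMSO mice (adjusted p 0.0439 and 0.0396, edgeR). Their values in A10i mice were -0.32 and -0.33 (adjusted p 0.0646 and 0.0676, edgeR). Atp5c1, the rotating stalk, was at -0.39 in DMSO and -0.22 in A10i mice. The proton-carrying c ring is encoded by 3 genes whose mature proteins are identical. Of these, Atp5g1 had 4906, 4786 and 4933 normalized counts in sham, 3984, 3801, 3323 and 2648 in DMSO and 3361, 3833, 4268 and 4821 in the A10i mice, with log2 differences of -0.51 (SE 0.13, adjusted p 0.0119) and -0.26 (adjusted p 0.0869). All DMSO mice and all A10i mice but A120 lay below sham. Atp5g3, the most abundant of them, was at -0.23 and -0.09, and the rare Atp5g2 at -0.13 and -0.21.

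Atp5s, a coupling factor of the ATP synthase rather than a core subunit (ENSMUSG00000054894, chr12:69724950-69744660 on GRCm38), fell in A10i mice by 0.39 on the log2 scale (SE 0.08, adjusted p 0.00407). It had 546, 594 and 607 normalized counts in sham and 402, 456, 461 and 453 in A10i mice. The DMSO mice, at 457, 433, 549 and 323, were more spread and overlapped sham, with a log2 difference of -0.41 (adjusted p 0.0574), and the difference between A10i and DMSO mice was 0.01 (adjusted p 0.988). The call in A10i mice ended without A120 (adjusted p 0.0101), without any 1 sham mouse (0.0111 to 0.0245) and with library size alone (0.0574), in edgeR's test. Atp5l, subunit g of the membrane part, was the member opposite in sign to its complex, at 0.08 in DMSO and 0.01 in A10i mice, with groups that overlapped.

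Complex IV held the largest differences in both directions. Several of its small nuclear subunits exist as a form of heart and skeletal muscle and a form of most other tissues, and which form is present is known to tune the activity of the enzyme. Cox7a1, the muscle form of subunit 7a (ENSMUSG00000074218, chr7:30184144-30186078 on GRCm38), had 9202, 9831 and 10083 normalized counts in sham, 6104, 5438, 4862 and 2992 in DMSO and 4673, 5902, 6590 and 7090 in the A10i mice. Every infarcted mouse lay below every sham mouse. Cox7a1 fell by 1.01 on the log2 scale, or -50.2%, in DMSO mice (SE 0.20, adjusted p 0.00461) and by 0.68, or -37.4%, in A10i mice (SE 0.13, adjusted p 0.00266). Both calls ended when any 1 sham mouse was left out, with adjusted p-values of 0.0169 to 0.0214 in DMSO and of 0.0111 to 0.0155 in A10i mice (edgeR), and the call in DMSO mice also ended without A128 (0.0104).

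Cox6a1, the form of subunit 6a found in most tissues (ENSMUSG00000041697, chr5:115345642-115348981 on GRCm38), was the member that rose. It had 1200, 1309 and 1243 normalized counts in sham, 1721, 1661, 1395 and 1659 in DMSO and 1670, 1466, 1704 and 1784 in the A10i mice. All infarcted mice lay above all sham mice. It rose in A10i mice by 0.41 (SE 0.08, adjusted p 0.00259), while its value in DMSO mice, 0.36 (SE 0.09), just missed the threshold (adjusted p 0.0101) and passed it without A128 (0.00212). The call in A10i mice ended without any 1 sham mouse (adjusted p 0.0105 to 0.0190, edgeR). Its muscle partner Cox6a2 had 20244, 19742 and 21173 normalized counts in sham, 17658, 17668, 15438 and 11171 in DMSO and 13163, 17855, 18497 and 18253 in the A10i mice. It lay below sham in every infarcted mouse, with log2 differences of -0.40 (SE 0.15, adjusted p 0.0633) and -0.26 (SE 0.12, adjusted p 0.114) that did not pass the test. Cox8b, the muscle form of subunit 8, had 6338, 6658 and 6942 normalized counts in sham, 5516, 5372, 4381 and 2957 in DMSO and 4213, 5326, 5863 and 6236 in the A10i mice, with log2 differences of -0.55 (adjusted p 0.0423) and -0.29 (adjusted p 0.0783). The widespread partners were closer to sham, Cox7a2 at -0.29 and -0.18 and Cox8a at -0.18 and -0.12.

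**Figure D3:**
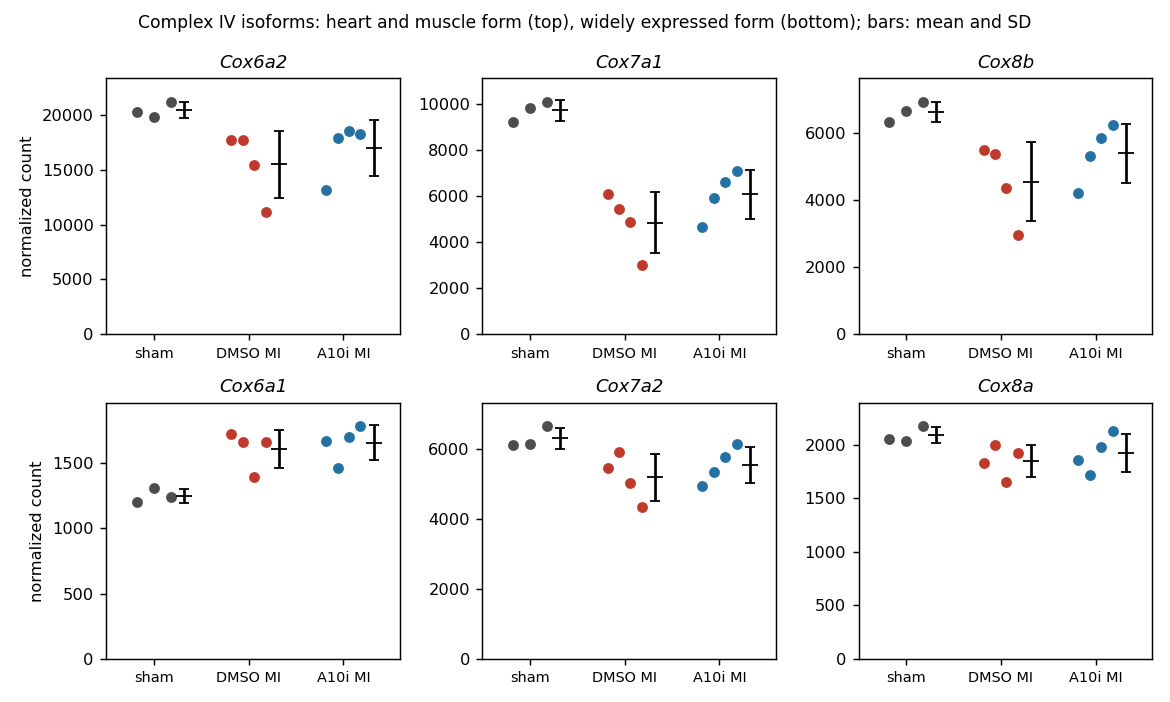
Normalized counts of 3 muscle isoforms of complex IV (top) and their widespread partners (bottom) are plotted for each mouse, with the mean and SD of each group as black bars and axes that start at 0. Cox7a1 lies at 9202 to 10083 in sham and at 2992 to 7090 in infarcted mice, while Cox6a1 lies at 1200 to 1309 in sham and at 1395 to 1784 in infarcted mice.

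A ratio of paired forms within a library does not depend on how the libraries are scaled. The ratio of Cox6a2 to Cox6a1 counts was 16.3 ± 1.08 (SD, n = 3) in sham, 9.68 ± 1.99 (SD, n = 4) in DMSO and 10.3 ± 1.80 (SD, n = 4) in A10i mice. That of Cox7a1 to Cox7a2 was 1.54 ± 0.0542 in sham, 0.923 ± 0.179 in DMSO and 1.09 ± 0.0972 in the A10i mice, with the same n. Sham overlapped neither infarcted group in these ratios. Their log2 differences from sham were -0.78 and -0.76 in DMSO and -0.68 and -0.51 in A10i mice. The exact permutation test, two-sided, gave p = 0.0571 for each of these 4 differences, which is the smallest p that 3 mice against 4 allow, so this design could not pass 0.05 (adjusted over 8 pairs, 0.0914 in DMSO and 0.152 in A10i mice). The ratio of Cox8b to Cox8a lay below sham in all 4 DMSO mice (log2 difference -0.41, exact permutation p = 0.0571) and overlapped sham in A10i mice (-0.19, p = 0.114), but without A129 the first was -0.19 and without A116 the second was -0.09. Atp5g1 to Atp5g3 gave -0.28 in DMSO and -0.17 in A10i mice, neither overlapping sham. The ratio of Cox6b2 to Cox6b1, which rests on few Cox6b2 counts, lay above sham in all 4 DMSO mice (log2 difference 0.89, exact permutation p = 0.0571, adjusted 0.0914) and overlapped sham in A10i mice (0.85, p = 0.114). Between A10i and DMSO mice every ratio overlapped, with adjusted p-values from 0.629 to 1 in the exact permutation test, whose smallest possible p is 0.0286. Without A129 and without A116 the Cox6a2 to Cox6a1 difference from sham was -0.61 and -0.56, and that of Cox7a1 to Cox7a2 was -0.62 and -0.44.

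**Figure D4:**
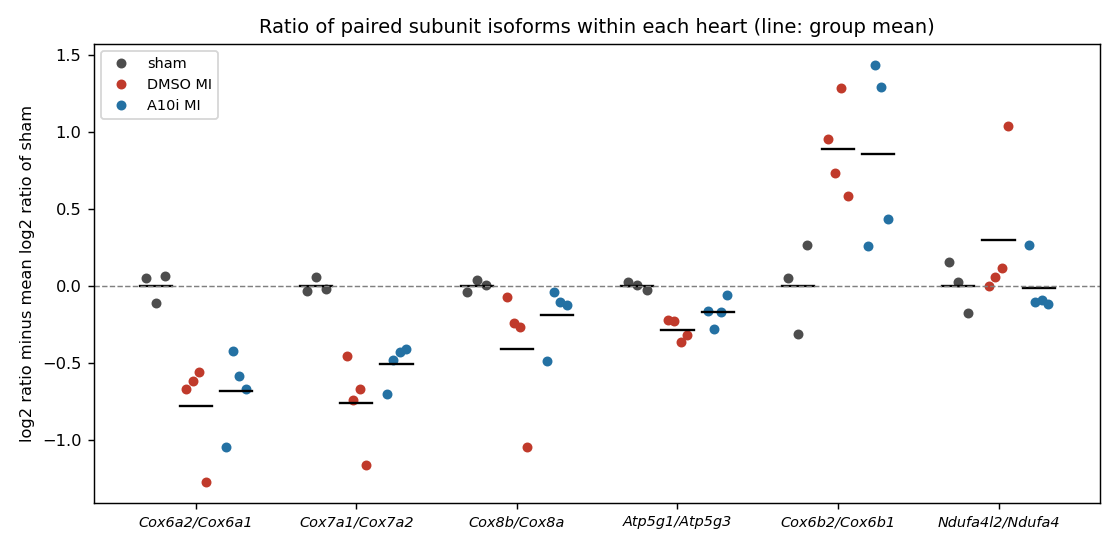
The log2 ratio of paired isoform genes in each mouse is plotted relative to the mean log2 ratio of sham, with a black line for each group mean. For Cox6a2/Cox6a1 and Cox7a1/Cox7a2 all infarcted mice lie below all sham mice, with DMSO means of -0.78 and -0.76 and A10i means of -0.68 and -0.51. Cox6b2/Cox6b1 rests on few Cox6b2 counts.

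The other paired forms are a testis form and forms linked to low oxygen. Cox6b2, known from testis, was rare, with 27.7, 21.99 and 33.0 normalized counts in sham, 48.5, 40.3, 54.4 and 27.1 in DMSO and 24.3, 63.3, 64.4 and 36.8 in the A10i mice. Its log2 differences of 0.63 (SE 0.29, adjusted p 0.109) and 0.78 (SE 0.35, adjusted p 0.102) did not pass the test, and the groups overlapped. Ndufa4l2, known as a target of hypoxia-inducible factor, had 416, 370.0 and 353 normalized counts in sham, 363, 372, 373 and 518 in DMSO and 344, 323, 341 and 362 in the A10i mice. Its log2 differences from sham were 0.10 in DMSO and -0.15 in A10i mice (adjusted p 0.617 and 0.223), and both groups overlapped sham, as did the ratio to Ndufa4. It was the member whose A10i mice all lay below its DMSO mice (1 of 81, background 4.1%), and for 0 members did they all lie above (background 4.05%). The ratio of Cox4i2 to Cox4i1, the low-oxygen and the common form of subunit 4, also overlapped in all comparisons, with means of 0.00571 (sham), 0.00615 (DMSO) and 0.00535 (A10i). Cox4i1 itself lay at -0.45 and -0.24 against sham (adjusted p 0.0374 and 0.146). The remaining named members of complex IV were lower in value in DMSO and A10i mice without passing the test. They were Cox5a (-0.29 and -0.13), Cox5b (-0.34 and -0.19), Cox6b1 (-0.28 and -0.16), Cox7b (-0.23 and -0.08) and Ndufa4 (-0.21 and -0.12). Cox7a2l, a relative of subunit 7a (ENSMUSG00000024248, chr17:83501918-83517330 on GRCm38), fell in DMSO mice by 0.37 (SE 0.09, adjusted p 0.00862), from 3761, 3637 and 3823 to 2797, 3234, 2943 and 2605 normalized counts, and lay at -0.20 (adjusted p 0.0792) in A10i mice. That call ended without A105 (adjusted p 0.0134), without A128 (0.0128), without any 1 sham mouse (0.0306 to 0.0434) and with library size alone (0.163), in edgeR's test.

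The promoter sequences of the divergent isoforms are shown because the values of their genes differed within 1 subunit. The stretches lie directly upstream of the annotated first exon, 5′ to 3′ in the direction of the gene, from RefSeq on GRCm38.p6. Capitals mark matches on either strand to the letters of the 8 motifs given further on. In these windows Cox7a1 holds a pair of inverted CCAAT boxes, Cox7a2 a GC box, Cox8b an E-box, Cox8a an inverted CCAAT box, and Cox6a1 NRF1-type letters, GC boxes and a CCAAT box. No entry for Cox6a2 was used.
Cox7a1, chr7:30183971-30184143, plus strand: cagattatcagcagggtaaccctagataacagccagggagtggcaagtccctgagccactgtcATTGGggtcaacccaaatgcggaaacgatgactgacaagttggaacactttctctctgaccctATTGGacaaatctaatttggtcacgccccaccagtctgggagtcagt
Cox7a2, chr9:79759879-79760053, minus strand: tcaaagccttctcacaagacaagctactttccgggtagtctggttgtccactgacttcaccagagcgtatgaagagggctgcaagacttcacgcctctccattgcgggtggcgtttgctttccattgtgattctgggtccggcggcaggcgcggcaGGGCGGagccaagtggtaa
Cox8b, chr7:140900447-140900646, minus strand: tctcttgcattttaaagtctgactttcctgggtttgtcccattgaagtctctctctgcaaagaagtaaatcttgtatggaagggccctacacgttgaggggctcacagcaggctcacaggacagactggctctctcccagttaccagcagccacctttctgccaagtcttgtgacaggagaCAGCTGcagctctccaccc
Cox8a, chr19:7217617-7217816, minus strand: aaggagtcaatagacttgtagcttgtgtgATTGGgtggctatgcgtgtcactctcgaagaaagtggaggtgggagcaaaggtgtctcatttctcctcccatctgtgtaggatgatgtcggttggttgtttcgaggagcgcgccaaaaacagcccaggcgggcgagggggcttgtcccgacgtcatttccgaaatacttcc
Cox6a1, chr5:115348982-115349158, minus strand: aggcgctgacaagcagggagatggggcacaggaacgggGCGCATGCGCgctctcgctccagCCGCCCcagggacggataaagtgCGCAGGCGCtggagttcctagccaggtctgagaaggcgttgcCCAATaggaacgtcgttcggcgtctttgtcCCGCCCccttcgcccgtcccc

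Over the 69 members with a promoter window (250 bases before to 50 after the start, 2 of them matched by an older symbol), letters of known regulators of mitochondrial genes were common. The NRF1-type letters GCGCNTGCG stood in 33.3% of members and in 6.31% of all 32851 windows. The ETS-type letters CCGGAAG stood in 23.2% and 8.86%, the YY1-type letters AAGATGGCG in 10.1% and 1.4%, and the ERR-type letters AAGGTCA in 11.6% and 4.72%. CCAAT boxes (CCAAT) stood in 43.5% and 37.4%, GC boxes (GGGCGG) in 42% and 35.7%, muscle E-boxes (CAGCTG) in 8.7% and 16.3%, and MEF2-type letters TAAAAATA in 0% and 2.72%. Both strands were searched, no motif lies whole inside another, and a palindromic stretch is matched on both strands. The members with and without NRF1-type letters had about the same median difference in DMSO mice, -0.37 (23 members) and -0.33 (46 members, with Cox7b2 untested). In A10i mice the medians were -0.18 and -0.19. A match describes letters, not a bound site.

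Genes that act with the subunits were compared on the same TMM scale. Cardiomyocyte scaling shifts the median of all genes to 0.76 in DMSO and 0.53 in A10i mice against sham, and library size alone to 0.21 and 0.18, so the sign of each list median below holds relative to the other genes of the TMM scale only. Of 13 mitochondrially encoded OXPHOS mRNAs, 2 fell in DMSO mice (median -0.51) and 10 fell in A10i mice (median -0.48), and the median between A10i and DMSO was -0.01. The counts of these mRNAs per count of the 84 members were 6.38 ± 0.198 (SD, n = 3) in sham, 5.63 ± 0.323 (SD, n = 4) in DMSO and 5.21 ± 0.209 (SD, n = 4) in A10i mice, and sham overlapped neither group. Poly(A) enrichment reads these mRNAs through their short tails, so this ratio compares like libraries and is no measure of mitochondrial transcription. The background against which these counts are read is 9.6% of all genes lower and 12.9% higher in DMSO mice, and 9.09% lower and 13.8% higher in A10i mice. Of 41 assembly factors 14 fell in DMSO and 10 in A10i mice (medians -0.33 and -0.26), or 34.1% and 24.4%. Of 18 citric acid cycle enzymes 1 and 2 fell (-0.36 and -0.30), 5.56% and 11.1%, near the background, and of 77 mitochondrial ribosomal proteins 10 and 7 fell and 1 rose in each group (-0.22 and -0.16), where the shares that fell, 13.0% and 9.09%, were also near it. Of 15 genes of the outer membrane and protein import 0 and 1 fell (-0.11 and -0.11), and of 11 OXPHOS partners outside the symbol rule 1 and 0 fell (-0.34 and -0.24), counts no higher than the background. Of 77 cytosolic ribosomal proteins 47 and 44 rose and 1 fell in each (0.52 and 0.43). None of these lists had a member past 0.01 between A10i and DMSO mice in edgeR, where 0 genes passed in all. In that comparison DESeq2 passed 227 genes in all, and these lists were not counted with it.

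Regulators of OXPHOS genes went in both directions. Of 17, in DMSO mice 2 fell and 4 rose, or 11.76% and 23.53% (backgrounds 9.6% and 12.9%). In A10i mice 3 fell and 3 rose, or 17.65% each (backgrounds 9.09% and 13.8%). Counts this small do not set the list apart from the background. Ppargc1a, a coactivator of mitochondrial genes, had mean normalized counts of 4535 (sham), 8745 (DMSO) and 7094 (A10i). It rose in DMSO mice by 0.94 on the log2 scale (SE 0.13, adjusted p 0.000751), with 0.65 (adjusted p 0.0214) in A10i mice. Its relative Pprc1 rose in DMSO mice by 0.98 (adjusted p 0.000222), and was at 0.36 (adjusted p 0.0165) in A10i mice. Ppara, a nuclear receptor of fatty acid oxidation, fell in both, by 0.75 (adjusted p 0.000351) and 0.62 (adjusted p 0.00097). Esrrg, an estrogen-related receptor of mitochondrial genes, fell in A10i mice by 0.53 (adjusted p 0.0039), and its value in DMSO mice was -0.34 (adjusted p 0.0603). Hif1a, the oxygen-regulated factor, rose by 1.03 and 0.64 (adjusted p 8.44e-05 and 0.00161), and Myc rose by 2.93 and 1.91 (adjusted p 0.000159 and 0.000894), in edgeR's test. In the same test Tfb2m fell by 0.48 and 0.41 (adjusted p 0.00778 and 0.00762). Gabpb1 rose in A10i mice by 0.38 (adjusted p 0.006845, edgeR) and was at 0.32 in DMSO mice (0.0622).

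After TMM scaling the median of the cardiomyocyte markers lay below every sham mouse in each infarcted mouse. The median of the subunits did so in each infarcted mouse but A120, which lay within the sham range. The part of the cell types in these results was not tested. In sham mice the median of the cardiomyocyte markers lay between -0.0043 and 0.02 of the sham mean. DMSO mice A105, A127, A128 and A129 had -0.40, -0.48, -0.64 and -0.83, in the same order as their OXPHOS medians, and A10i mice A116, A117, A119 and A120 had -0.76, -0.44, -0.26 and -0.36. In each infarcted mouse the cardiomyocyte markers lay further below sham than the OXPHOS members. Among A10i mice the cardiomyocyte markers were highest in A119, and the OXPHOS median in A120. The neutrophil markers lay at 6.49 to 7.42 in DMSO and at 3.59 to 5.91 in A10i mice. The fibroblast markers lay at 0.84 to 2.24 and at 1.72 to 2.68, highest in A116 among all mice. The macrophage and monocyte markers lay at 0.63 to 1.41 and at 1.03 to 1.81. Endothelial markers lay at -0.29 to -0.15 and at -0.04 to 0.02. Relative to the median of all genes, the members stood at -0.34 in DMSO and -0.18 in A10i mice with TMM. With library size alone they stood at -0.35 and -0.18, and with cardiomyocyte scaling at -0.37 and -0.19. A scaling shifts all genes of a library by the same factor, so these values had to come out alike and are not independent support.

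**Figure D5:**
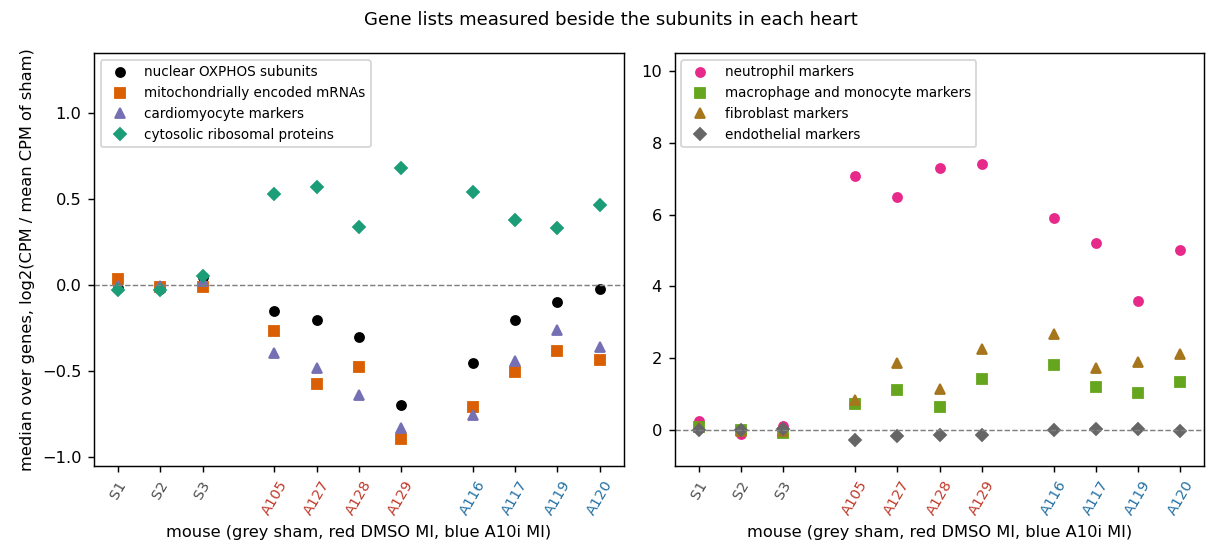
The median log2 CPM of gene lists relative to the mean of sham is plotted for each mouse, with TMM scaling. Left, nuclear OXPHOS subunits (black) lie above the cardiomyocyte markers and the mitochondrially encoded mRNAs in each infarcted mouse, and the cytosolic ribosomal proteins lie at 0.33 to 0.69. Right, neutrophil markers lie at 3.59 to 7.42 in infarcted mice. Under cardiomyocyte scaling the median of the OXPHOS members lies above sham, as does that of all genes.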

How the data were processed

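Poly(A) RNA of 11 mouse hearts (3 sham, 4 DMSO MI, 4 A10i MI) was made into strand-specific libraries. Per the labels and the study's methods, the authors converted reads with bcl2fastq 2.20.0, aligned the pairs with GSNAP to mm10 (GRCm38) and counted uniquely aligned reads per gene of Ensembl release 98 with featureCounts 2.0.1. The deposited values are raw counts of 55513 genes, without normalization; the strand setting is not given in the sources used here. Library totals of 21702659 to 29511782 limit precision less than the spread between mice, and p-values measure that spread. No replicate pair agreed within sampling noise (smallest chi-square per degree of freedom 3.80).

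Symbols, positions and shared exonic windows came from GENCODE M21, which names 55240 of the genes. Each comparison was fitted on its own groups in R 4.3.3 with edgeR 4.0.16 (filterByExpr, TMM, robust quasi-likelihood F-test, two-sided, Benjamini-Hochberg over all genes tested, threshold 0.01). RPKM used the union exonic length. Isoform ratios were compared by an exact permutation test over mice. DESeq2 1.42.0, limma 3.58.1, other scalings, filters, fits and the omission of each mouse were alternatives. The edgeR, DESeq2 and limma-voom tests were run on simulated data, whose planted changes were larger than those of most members. The other alternatives were not simulated. Named in full are the paired isoform genes, the core subunits, the extreme members of each complex and comparison, members opposite in sign to their complex, the 5 smallest p-values of A10i against DMSO, Cox4i1, Cox4i2 and Cyc1. Members called by the test, and the regulators, Ndufa10, Ndufs5 and Cox7a2l among them, were also named after their values were seen. The members and lists were chosen with earlier results of these data known. Promoter windows are from RefSeq (GRCm38.p6). Protein sequences were not used here. The values of 1 core subunit are not reported here.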

Additional observations from a re-analysis of the deposited data

Results flagged for a closer look

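Of 110 groups of 4 mice tested for an outlying mouse, over the named members and ratios, 10 held a mouse far from the other 3 (Dixon's criterion, which chance meets in about 1 group in 20). All were DMSO mouse A129 or A10i mouse A116. In A129, Ndufs7 had 3976 normalized counts against 5534 to 5783 in the other DMSO mice, Ndufv2 7073 against 9521 to 9905 and Sdhc 7543 against 9957 to 10418. Ndufa4l2 stood out the other way in A129, with 518 normalized counts against 363 to 373. The log2 ratio of Cox6a2 to Cox6a1 in A129 was 2.75 against 3.36 to 3.47, and that of Ndufa4l2 to Ndufa4 was -4.16 against -5.20 to -5.08. In A116, Ndufs3 had 2150.2 normalized counts against 2801 to 2864 in the other A10i mice, Cox6a2 13163 against 17855 to 18497 and Atp5s 402 against 453 to 461. The log2 ratio of Ndufa4l2 to Ndufa4 in A116 was -4.93 against -5.31 to -5.28.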

How the results depend on the processing

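With library size alone the member median against sham was -0.14 in DMSO and -0.0005 in A10i mice. In the latter 41 members were lower and 40 higher, so no direction in value remained. The medians of all genes on that scale were 0.21 and 0.18, above those of the members in both groups. Scaling to the cardiomyocyte markers, chosen after seeing the data, turned the signs of the member medians. It gave 0.39 in DMSO and 0.34 in A10i mice against sham and -0.0815 in A10i against DMSO mice. The medians of all genes on that scale were 0.76, 0.53 and -0.22. Against sham this scaling left 0 members lower and 46 (DMSO) and 47 (A10i) higher, or 56.8% and 58.0%. Of all genes, 57.1% and 43.7% were higher at the same threshold. The member counts in DMSO mice against sham were 30 lower at a threshold of 0.05, 18 with DESeq2, 10 without a filter and 1 with library size alone. In A10i mice they were 10 lower at 0.05, 7 with DESeq2, 9 without a filter, 1 with library size alone and 0 with all 11 libraries in 1 fit. Cox6a1, the 1 member higher, passed in DMSO mice at 0.05, with DESeq2, with library size alone, without a filter, with at least 10 counts in every library and with all 11 libraries in 1 fit, while Cox7a1 missed the threshold in DMSO mice without a filter (adjusted p 0.0137, edgeR). Leaving out each mouse gave 0 to 10 lower and 0 to 1 higher in DMSO mice, 0 to 9 lower and 0 to 1 higher in A10i mice, and medians of -0.42 to -0.23, -0.24 to -0.10 and 0.03 to 0.22. The cause was not tested, though leaving out a sham mouse leaves 2 in that group. For single members, 305 alternative values kept their side of the threshold, 51 lost the call and 20 gained it. None of these changed sign past the threshold. Cardiomyocyte scaling was left out of these counts, and under it Cox7a2l was called higher in A10i mice against sham (-0.20 with TMM). No isoform ratio moved across 0.05, which 3 mice against 4 cannot reach. DESeq2 size factors and TMM on nuclear genes alone gave the same member calls against sham. No paired analysis was possible because the groups share no mouse or replicate number.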
